A study of Mus musculus with 4 samples.

Results

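Transcripts that mark cells other than macrophages were followed in adherent mouse peritoneal exudate cells after a night in culture with TGFb2, the cytokine transforming growth factor beta 2, or with its PBS vehicle. The list held 38 marker genes of B cells, T cells, cytotoxic and NK cells, mast cells, eosinophils, endothelium, platelets and mesenchymal cells. A probe set was taken when its symbol in the platform's probe table was exactly one of these, whatever its signal. This gave 62 of the 12422 probe sets that are not controls and 35 of 8251 genes, and Lck, Nkg7 and Itga2b were not analysed here. The TGFb2 group (5 ng porcine TGFb2, with no volume given in the labels) and the PBS group each held 2 Affymetrix arrays. Both groups came from female BALB/c mice aged 6 to 8 weeks that had received 2 ml of 3% thioglycolate, an irritant, in the peritoneum 4 days before harvest. Both were cultured in serum-free medium, and adherent cells, over 95% of them F4/80+ in the labels, were lysed for RNA. Whether the 2 arrays of a group came from separate mice or cultures is not stated in the labels. Every p-value below therefore rests on the spread between arrays that may differ only technically.

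The peritoneal cavity is home to B cells, T cells and mast cells beside macrophages, and an irritant also draws eosinophils and other leukocytes into it. Adherence to plastic enriches macrophages but can carry other cells along, together with fibroblasts, mesothelium or vessel fragments loosened by the wash. Lineage markers such as the CD3 chains, the CD79 chains of the B cell receptor and the mast cell proteases are used to read such cells out of bulk RNA. In bulk RNA fewer cells of a type and less RNA per cell cannot be told apart. Nor can either be told apart from a change in transcription of a marker gene by the macrophages themselves.

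The labelled macrophage identity was borne by its markers. The signal of Adgre1, which encodes F4/80, was 470.9 and 747.7 on the TGFb2 arrays and 488.1 and 779.9 on the PBS arrays, and that of the lysosomal glycoprotein gene Cd68 was 7363.0 and 6991.3 with TGFb2 and 6377.8 and 5851.0 with PBS. All 9 macrophage markers on the array were above the level filter, a mean MAS5 signal of 25.1 over the 4 arrays (the 40th percentile), below which no test was made. Passing it does not itself mark macrophages, since 16 of the 35 listed genes of other cells passed too. Mertk, the dimmest of the macrophage markers, had 80.7 and 85.1 with TGFb2 and 37.4 and 47.2 with PBS. MAS5 signal is a background-corrected brightness on a linear scale whose size differs with each probe set, so levels are set against blank probe sets only for orientation. The mice were female, and the 9 probe sets of 7 genes placed on the Y chromosome gave signals of 0.4 to 20.7. A wider blank is given by the 15 Affymetrix control probe sets of the opposite strand, which ran from 1.7 to 120.8 with a median of 24.0.

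Of the 62 marker probe sets, 30 (48.4%) stayed within the Y-linked range, that is at or below 20.7, on all 4 arrays, against 28.9% of all probe sets. For 13 of the 35 genes this held for every probe set: Cd3d, Cd3e, Cd3g, Cd5, Cd8a, Cd8b1, Klrd1, Fcer1a, Kit, Mcpt4, Tek, Cdh5 and Gp1bb. With the upper end of that range set by the Y-linked probe sets other than the brighter one of Sry (10.1), the count of probe sets was 18. Only Cd22 was above the highest opposite-strand control on all 4 arrays, while Ighm, Tpsb2, Vwf and Pdgfra were above it on some. The only probe set of Cd22 and the brightest of Ighm have the suffix _s_at, used where related sequences may match. The level of these genes is therefore uncertain. The plot of signals by array shows each gene's 4 signals beside the Y-linked range.

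**Figure D1:**
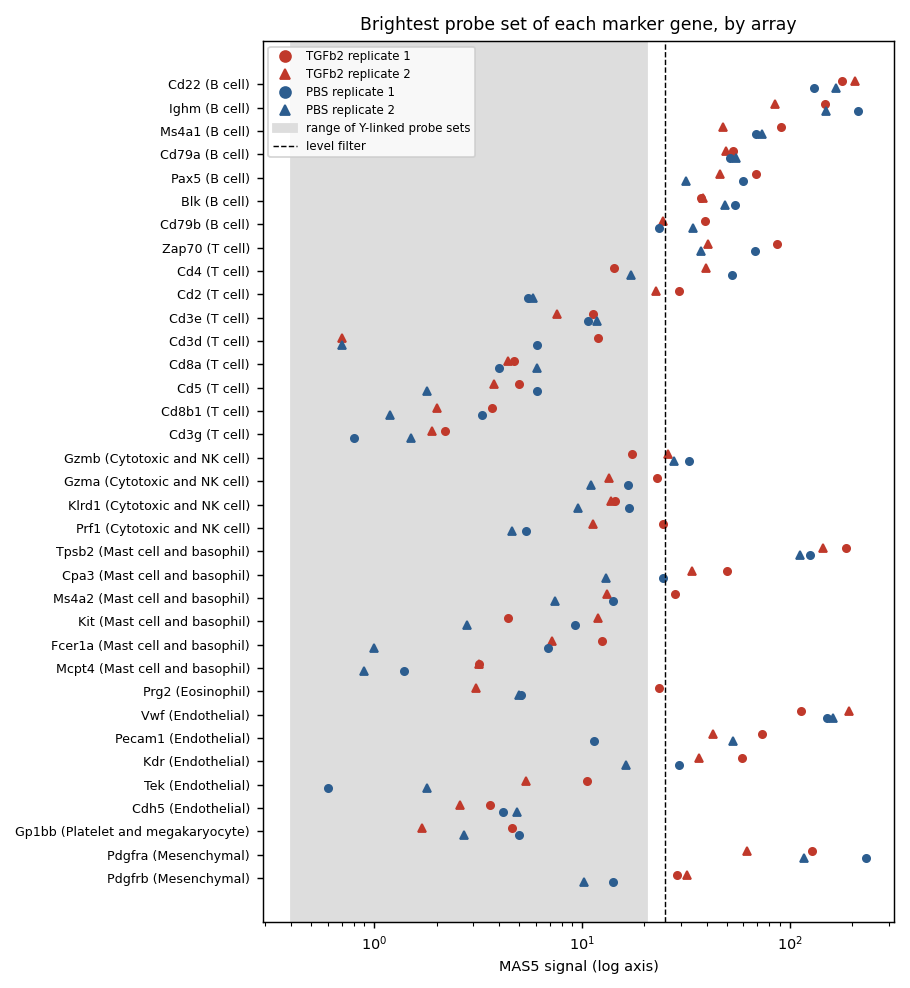
MAS5 signal (log axis) of the brightest probe set of each of the 35 marker genes, with 1 point per array (TGFb2 red, PBS blue, circles replicate 1, triangles replicate 2). The grey band is the range of the Y-linked probe sets, 0.4 to 20.7, and the dashed line is the level filter at 25.1. The CD3 and CD8 genes lie inside the band on all 4 arrays, and the 7 B cell genes lie above it.

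The question put to the 2 groups was whether any of these transcripts differed after TGFb2. Signals were compared as log2(signal + 15) with limma, and 21 of the 62 probe sets, from 16 genes, passed the level filter. Of these 21, 5 had the mean of 1 group below it: Zap70 (suffix _s_at), Cpa3 and Kdr had a PBS mean below it, and Gzmb and the dimmer Ms4a1 probe set a TGFb2 mean below it. None of the 21 passed an adjusted p of 0.05 (limma, 0 higher and 0 lower), where 1.17% of all 7453 tested probe sets did (0.805% higher and 0.362% lower with TGFb2). At an unadjusted p of 0.05 the count was 5 of 21, against 11.7% of all tested. The 5 were the Zap70, Cpa3 and dimmer Ms4a1 probe sets just named, the dimmer one of Tpsb2 and the second brightest of Ighm. Zap70 and Cpa3 passed the filter only through the group where they were high, as did Ms4a1, so this count is no result about the markers. With the filter left off, 0 of the 62 passed after adjustment over 12422 probe sets, against 0.0483% of all, and 7 of the 62 had an unadjusted p under 0.05, against 9.14% of all. The median log2 difference over the 62 probe sets was 0.12, and over all probe sets it was 0.02. Both TGFb2 arrays lay above both PBS arrays for 20 of the 62, which is 32.3% beside 21.4% of all probe sets, and below both for 7, which is 11.3% beside 17.5%. The groups thus did not overlap in 43.5% of the marker probe sets and 38.9% of all. Leaving out 1 array loosens that criterion. Without PBS replicate 1 it gave 35 above (56.5%, beside 37.3% of all) and 12 below (19.4%, beside 28.8%). Without TGFb2 replicate 2 it gave 40 above (64.5%, beside 44.8%) and 9 below (14.5%, beside 29.8%). The shares above lay nearer to those of all probe sets with the other arrays left out. Leaving out PBS replicate 2 gave 24 above (38.7%, beside 33.1%) and 14 below (22.6%, beside 31.5%). Leaving out TGFb2 replicate 1 gave 23 above (37.1%, beside 33.3%) and 20 below (32.3%, beside 37.6%).

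**Figure D2:**
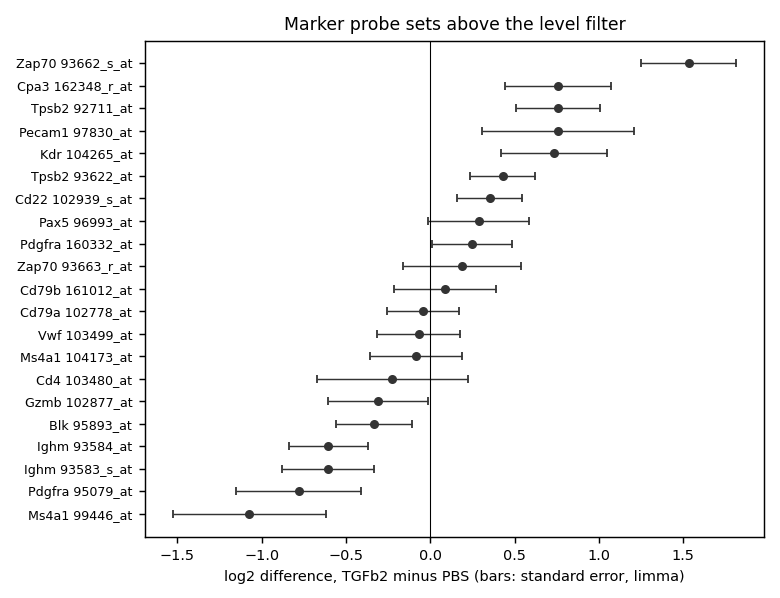
Log2 difference, TGFb2 minus PBS on the log2(signal + 15) scale, of the 21 marker probe sets above the level filter, with the limma standard error as bars (2 arrays per group). The _s_at probe set of Zap70 stands highest at 1.53 and the dimmer one of Ms4a1 lowest at -1.07, and 0 of the 21 passed the adjusted threshold.

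All 7 B cell genes had a probe set above the level filter. Cd22, an inhibitory receptor that binds sialic acid, had 178.9 and 207.4 with TGFb2 and 131.0 and 166.6 with PBS. The groups did not overlap, but the log2 difference of 0.35 ± 0.19 (SE) did not pass (limma, adjusted p = 0.55). Cd79a, the signalling chain of the B cell receptor, was nearly level at 53.6 and 49.7 with TGFb2 and 51.8 and 55.5 with PBS (log2 difference -0.04 ± 0.21). Its partner Cd79b had 39.2 and 24.5 with TGFb2 and 23.6 and 34.3 with PBS, so that the groups overlapped. Pax5, the transcription factor of B cell identity, had 69.3 and 46.4 with TGFb2 and 59.4 and 31.8 with PBS in its brighter probe set, and 3.5 to 9.0 in the other. Blk, a Src-family kinase of B cells, had 37.5 and 38.5 with TGFb2 and 54.8 and 49.1 with PBS in its brighter probe set. These did not overlap (log2 difference -0.34 ± 0.23, limma adjusted p = 0.63). The dimmer probe set of Blk did not share this, with 17.0 and 9.2 with TGFb2 and 12.7 and 10.7 with PBS. It overlapped and lay below the filter.

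Ighm, the heavy chain of IgM, and Ms4a1, the surface protein CD20, gave the lowest B cell differences. The brightest probe set of Ighm had 147.8 and 85.4 with TGFb2 and 214.2 and 150.4 with PBS, and the next had 46.0 and 33.3 with TGFb2 and 73.8 and 61.9 with PBS. Both TGFb2 arrays were the lower ones in each, with log2 differences of -0.61 ± 0.27 and -0.61 ± 0.23 that did not pass (limma adjusted p = 0.45 and 0.37). The other 14 probe sets that the table assigns to Ighm all lay below the filter, and 5 of them (35.7%, beside 21.4% of all probe sets) had both TGFb2 arrays above both PBS arrays and 0 below (beside 17.5%). Of these 14, 10 varied over 2-fold between the 2 arrays of at least 1 group, and 10 stayed within the Y-linked range. The dimmer probe set of Ms4a1 had 42.7 and 6.1 with TGFb2 and 66.4 and 51.3 with PBS, so its log2 difference of -1.07 ± 0.45 drew mostly on TGFb2 replicate 2 and was -0.35 without that array (adjusted p = 0.42 with all arrays, limma). The brighter probe set of Ms4a1 had 91.1 and 48.0 with TGFb2 and 69.3 and 74.0 with PBS, a difference of -0.08 ± 0.27. Of 16 further B cell genes, 11 were on the array, 5 were tested and 0 passed. The 2 largest tested differences among them had opposite signs. Cd72, an inhibitory receptor of B cells, had 68.0 and 50.8 with TGFb2 and 141.3 and 94.9 with PBS (log2 difference -0.83 ± 0.24, limma adjusted p = 0.21). Blnk had 825.9 and 863.8 with TGFb2 and 704.4 and 708.1 with PBS (log2 difference 0.25 ± 0.14, limma adjusted p = 0.55).

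Of the 9 T cell genes, 6 stayed within the Y-linked range in every probe set. Cd3g, Cd3d and Cd3e, the chains through which the T cell receptor signals, reached at most 2.2, 12.0 and 11.8 on any array. Cd8a and Cd8b1, the chains of the CD8 coreceptor, reached at most 6.1 and 3.7, and Cd5, an inhibitory receptor of T cells and some B cells, at most 6.1. Cd4, the coreceptor of helper T cells, had 14.3 and 39.6 with TGFb2 and 52.8 and 17.3 with PBS, a spread within each group wider than the distance between them.

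Zap70 and Cd2 differed from the rest of the T cell block. Zap70 is the kinase that docks on the phosphorylated CD3 complex, and its probe set with the suffix _s_at had 57.2 and 51.6 with TGFb2 and 9.9 and 8.1 with PBS. Both TGFb2 arrays were above the Y-linked range and both PBS arrays within it. The log2 difference of 1.53 ± 0.28 was the highest of all marker probe sets and missed the threshold (limma, adjusted p = 0.0565). It was tested because its TGFb2 arrays lifted the mean over the filter, and without the filter its adjusted p was 0.16 (limma). With the filter, it passed after cyclic loess normalization (limma, adjusted p = 0.0469), and its range over the alternatives was 0.73 to 2.42. The other 2 probe sets of Zap70 did not share it: the one with the suffix _r_at had 87.5 and 40.6 with TGFb2 and 68.5 and 37.6 with PBS, and the one with the plain suffix _at had 5.2 and 1.8 with TGFb2 and 4.4 and 3.2 with PBS. The suffixes _s_at and _r_at mark designs that may match related sequences or that broke a probe selection rule, so the level of this gene is uncertain. Cd2, an adhesion receptor of T and NK cells, had 29.4 and 22.7 with TGFb2 and 5.5 and 5.8 with PBS, without overlap. Its mean lay below the filter, and without the filter the log2 difference of 0.99 ± 0.22 had an adjusted p of 0.24 (limma). Of 19 further T cell genes, 16 were on the array, 5 were tested and 0 passed, and 10 of the 16 stayed within the Y-linked range. The largest tested difference among them was that of Il2rb, a chain of the interleukin 2 receptor, at 38.7 and 35.8 with TGFb2 and 13.6 and 20.6 with PBS (log2 difference 0.71 ± 0.29, limma adjusted p = 0.40). The PBS mean of Il2rb, 17.1, lay below the level filter, so it too was tested only through its TGFb2 arrays.

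The 4 cytotoxic and NK cell genes were dim. Gzmb, a granzyme that starts death of target cells, had 17.5 and 26.0 with TGFb2 and 32.8 and 27.8 with PBS (log2 difference -0.31 ± 0.30, limma adjusted p = 0.75). The pore-forming perforin, Prf1, had 24.7 and 11.3 with TGFb2 and 5.4 and 4.6 with PBS, also without overlap but in the opposite direction, and below the filter (limma without the filter, adjusted p = 0.48). Gzma, a second granzyme, had 22.9 and 13.6 with TGFb2 and 16.7 and 11.1 with PBS. Klrd1, the CD94 chain of NK receptors, had 14.5 and 13.9 with TGFb2 and 16.9 and 9.6 with PBS. Of 17 further genes of these cells, 13 were on the array, 2 were tested and 0 passed.

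Mast cell markers lay higher with TGFb2 in several listed probe sets, none past the test. The wider list of mast cell genes did not share this, but it is not restricted to mast cells, since it holds Mitf. Tpsb2, a tryptase stored in mast cell granules, had 186.4 and 145.6 with TGFb2 and 125.3 and 112.1 with PBS in its brighter probe set, and 57.3 and 64.9 with TGFb2 and 24.4 and 36.5 with PBS in the other. Neither pair of groups overlapped, and the log2 differences were 0.43 ± 0.19 and 0.75 ± 0.25 (limma adjusted p = 0.44 and 0.28). Cpa3, the carboxypeptidase of mast cell granules, had 50.1 and 34.0 with TGFb2 and 24.7 and 13.1 with PBS in its brighter probe set (log2 difference 0.76 ± 0.32, limma adjusted p = 0.41). That probe set has the suffix _r_at, which marks a broken probe selection rule. The other probe set of Cpa3 had 16.2 and 10.0 with TGFb2 and 21.8 and 9.2 with PBS, with overlap. Fcer1a and Ms4a2, the alpha and beta chains of the high-affinity IgE receptor, had 12.5 and 7.2 against 6.9 and 1.0, and 28.0 and 13.2 against 14.2 and 7.4, TGFb2 against PBS in each case. Mcpt4, a chymase, reached at most 3.2, and Kit, the receptor for stem cell factor, at most 12.0. In all, 5 of the 8 probe sets (62.5%, beside 21.4% of all) had both TGFb2 arrays above both PBS arrays and 0 had them below (beside 17.5%). The 5 were both probe sets of Tpsb2, the brighter one of Cpa3, Fcer1a and Mcpt4. Of these, Fcer1a and Mcpt4 stayed within the Y-linked range on all 4 arrays, and Cpa3 had a PBS mean of 18.9, below the filter. Of 13 further mast cell and basophil genes, 10 were on the array, 6 were tested and 0 passed, and the median log2 difference of the 10 was -0.0051. The 2 largest tested differences among them had opposite signs. Mitf, a transcription factor of mast cells and macrophages, had 43.0 and 54.9 with TGFb2 and 78.3 and 65.3 with PBS, without overlap (log2 difference -0.44 ± 0.22, limma adjusted p = 0.50). Mcpt1, a chymase of mucosal mast cells, had 67.4 and 33.4 with TGFb2 and 10.5 and 5.0 with PBS, a log2 difference of 1.48 ± 0.36 (limma, adjusted p = 0.14). Its PBS mean of 7.75 lay below the level filter, and its probe set has the suffix _f_at, used where several members of a gene family can match.

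Promoter windows of 3 mast cell genes are shown because they hold a motif of the GATA factors, which are known from mast cell development. Of these 3 genes, Ms4a2 and one probe set of Cpa3 overlapped between the groups. RefSeq promoter windows of build GRCm38.p6, from 250 bases before to 50 after a start site, were found for 21 of the 35 genes (24 windows). Among the mast cell genes 5 had a window, and Tpsb2, the brightest of them, had none. Of 6 short motifs searched on both strands, AGATAA, a form of the GATA factor motif, was in 3 of the 6 mast cell windows, those of Cpa3, Fcer1a and Ms4a2, and not in those of Kit and Mcpt4. It was in 5 of the 24 marker windows (20.8%) and in 11.2% of all 32851 windows. TATAAA was also in 3 of the 6 mast cell windows, beside 13.6% of all. CAGAC, the core of the Smad-binding element, was in 1 of the 6, beside 49.6% of all, and the longer CAGACA and GTCTAGAC, which contain or resemble it, were in 0 of the 6, beside 21% and 0.213%. GGAAGT, an Ets-type motif, was in 0 of the 6, beside 23.8%. The windows are given 5′ to 3′ with AGATAA or its reverse complement TTATCT in capitals. A match is a description of letters and not a binding site.
Cpa3, chr3:20242132-20242431, minus strand: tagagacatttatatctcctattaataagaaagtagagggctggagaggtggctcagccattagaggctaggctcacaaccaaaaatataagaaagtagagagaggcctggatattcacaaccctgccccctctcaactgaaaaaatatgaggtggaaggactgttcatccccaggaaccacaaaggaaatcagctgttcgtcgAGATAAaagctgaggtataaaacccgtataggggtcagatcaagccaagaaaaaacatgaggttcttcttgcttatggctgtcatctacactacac
Fcer1a, chr1:173227180-173227479, minus strand: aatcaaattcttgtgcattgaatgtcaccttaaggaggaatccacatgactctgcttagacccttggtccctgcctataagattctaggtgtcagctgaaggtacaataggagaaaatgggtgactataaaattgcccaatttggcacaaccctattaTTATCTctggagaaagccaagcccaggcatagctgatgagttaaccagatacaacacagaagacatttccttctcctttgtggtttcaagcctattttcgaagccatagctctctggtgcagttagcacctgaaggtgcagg
Ms4a2, chr19:11623670-11623969, minus strand: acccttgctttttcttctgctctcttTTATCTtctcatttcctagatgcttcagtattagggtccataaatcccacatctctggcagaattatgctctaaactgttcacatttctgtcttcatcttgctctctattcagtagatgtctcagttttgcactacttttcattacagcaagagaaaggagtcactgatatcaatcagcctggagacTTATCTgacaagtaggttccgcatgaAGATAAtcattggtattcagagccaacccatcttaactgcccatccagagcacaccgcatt

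The eosinophil marker was at blank level on 3 of the 4 arrays. Prg2, which encodes major basic protein of eosinophil granules, had 23.5 and 3.1 with TGFb2 and 5.1 and 5.0 with PBS, so that TGFb2 replicate 1 alone stood apart. Its other probe set had 5.4 and 4.8 with TGFb2 and 3.1 and 3.9 with PBS. Of 10 further eosinophil genes, 5 were on the array, and 4 of these 5 stayed within the Y-linked range.

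Endothelial markers were mixed. Vwf, the clotting glycoprotein of endothelium and platelets, had 113.3 and 193.2 with TGFb2 and 150.7 and 162.4 with PBS in one probe set, and 5.9 to 9.2 in the other. Kdr, the main receptor for vascular endothelial growth factor, had 59.3 and 36.5 with TGFb2 and 29.4 and 16.3 with PBS, without overlap (log2 difference 0.73 ± 0.31, limma adjusted p = 0.43). Pecam1, an adhesion protein of endothelial junctions that leukocytes and platelets also carry, had 73.5 and 43.0 with TGFb2 and 11.4 and 53.3 with PBS. The PBS arrays differed more from each other than the groups did, and the log2 difference of 0.75 ± 0.45 was 0.07 without PBS replicate 1. Cdh5, the cadherin that defines endothelial junctions, reached at most 4.9, and Tek, the angiopoietin receptor, had 10.6 and 5.4 with TGFb2 and 0.6 and 1.8 with PBS. Gp1bb, a chain of the platelet receptor for von Willebrand factor, reached at most 5.0. Of 17 further endothelial genes, 13 were on the array, 2 were tested and 0 passed. Sox18 had 87.2 and 65.9 with TGFb2 and 47.9 and 39.6 with PBS, without overlap (log2 difference 0.63 ± 0.23, limma adjusted p = 0.33). Its probe set has the suffix _f_at, like that of Mcpt1. Eng had 480.8 and 413.2 with TGFb2 and 571.7 and 394.9 with PBS, with overlap (log2 difference -0.09 ± 0.21, limma adjusted p = 0.92). Of 14 platelet and megakaryocyte genes, 7 were on the array, 3 were tested and 0 passed.

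The receptors for platelet-derived growth factor, carried by fibroblasts and other mesenchymal cells, pointed both ways. The brightest probe set of Pdgfra had 128.2 and 62.2 with TGFb2 and 232.6 and 116.9 with PBS, a log2 difference of -0.78 ± 0.37 (limma, adjusted p = 0.47) with overlap between the groups. A second had 53.2 and 69.4 with TGFb2 and 56.3 and 42.3 with PBS, and the third stayed at or below 2.9. Pdgfrb had 28.9 and 32.2 with TGFb2 and 14.2 and 10.2 with PBS, without overlap and below the filter (log2 difference 0.75 ± 0.24, limma without the filter, adjusted p = 0.43). Of 15 further mesenchymal and mesothelial genes, 13 were on the array and 8 were tested, of which 1 rose (Col1a1) and 1 fell (Dcn). Col1a1 had 374.1 and 369.6 with TGFb2 and 144.1 and 142.2 with PBS (log2 difference 1.29 ± 0.16, limma adjusted p = 0.0215). Dcn had 318.7 and 256.5 with TGFb2 and 1130.5 and 746.8 with PBS (log2 difference -1.63 ± 0.23, limma adjusted p = 0.0265).

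Summed signals gave no cell type that separated the groups in both the listed and the wider genes. Over the brightest probe set of each gene, the listed mast cell genes summed to 284.6 and 215.2 with TGFb2 and 181.8 and 137.3 with PBS, a ratio of group means of 1.57, in which Tpsb2 held the largest share. Endothelial genes summed to 260.3 and 280.7 with TGFb2 and 196.3 and 238.7 with PBS, a ratio of 1.24. The wider mast cell list, which is not restricted to mast cells, summed to 790.7 and 633.6 with TGFb2 and 730.0 and 745.2 with PBS, with overlap. The wider endothelial list summed to 735.7 and 597.7 with TGFb2 and 735.1 and 573.7 with PBS, also with overlap. Eng held the largest share of that endothelial sum. The listed B cell genes summed to 617.4 and 499.9 with TGFb2 and 604.1 and 561.7 with PBS, a ratio of 0.96 with overlap. The wider B cell list summed to 2503.1 and 2382.8 with TGFb2 and 2293.3 and 2166.2 with PBS, without overlap. Within that sum, Blnk alone gave 825.9 and 863.8 with TGFb2 and 704.4 and 708.1 with PBS. T cell genes summed to 170.1 and 123.3 with TGFb2 and 157.8 and 83.8 with PBS, with overlap. With all probe sets of each gene they summed to 234.2 and 179.1 with TGFb2 and 172.2 and 98.2 with PBS, without overlap and with a ratio of 1.53. Cytotoxic and NK genes summed to 79.6 and 64.8 with TGFb2 and 71.8 and 53.1 with PBS, and mesenchymal genes to 157.1 and 94.4 with TGFb2 and 246.8 and 127.1 with PBS, each with overlap. The wider mesenchymal and mesothelial list summed to 1676.6 and 1710.4 with TGFb2 and 2279.7 and 1753.7 with PBS, without overlap and lower with TGFb2. The wider eosinophil list summed to 48.6 and 43.2 with TGFb2 and 34.7 and 32.7 with PBS, also without overlap. The listed eosinophil gene, Prg2, overlapped, as did the wider T cell, cytotoxic and NK, and platelet lists. With 2 arrays against 2 an exact two-sided permutation test cannot give a p below 0.333, so no test of these sums was made.

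**Figure D3:**
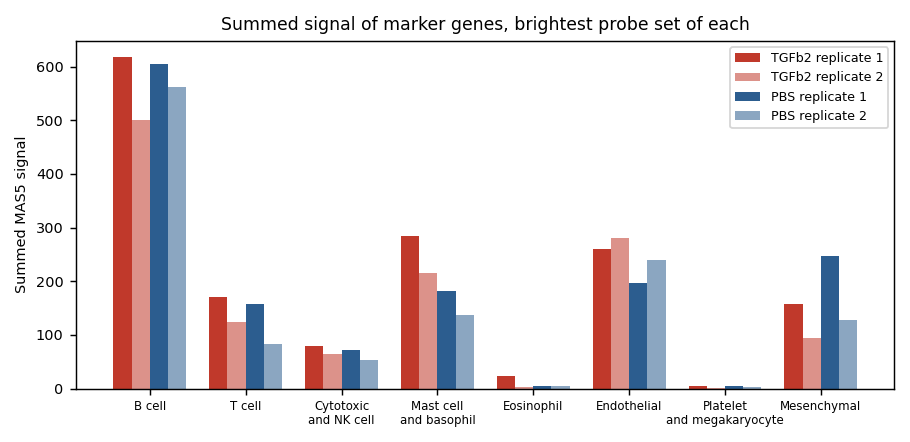
Summed MAS5 signal of the marker genes of each cell type on each array (brightest probe set of each gene, 1 bar per array, TGFb2 left and PBS right). The bars of the listed mast cell and endothelial genes are higher on both TGFb2 arrays, which did not hold for the wider lists, and those of the other cell types overlap between the groups.

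The spread between arrays of 1 group was wide for these dim probe sets. For 28 of the 62 (45.2%) the 2 arrays of at least 1 group differed over 2-fold, against 29.6% of all probe sets. TGFb2 replicate 1 read higher than TGFb2 replicate 2 in 49 of the 62 (79.0%), against 59.2% of all probe sets, and PBS replicate 1 higher than PBS replicate 2 in 41 (66.1%), against 53.6%. The median log2 difference of the 62 was 0.04 without TGFb2 replicate 1, 0.19 without TGFb2 replicate 2, 0.19 without PBS replicate 1 and 0.06 without PBS replicate 2. The part of this array difference in the results above was not tested.

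**Figure D4:**
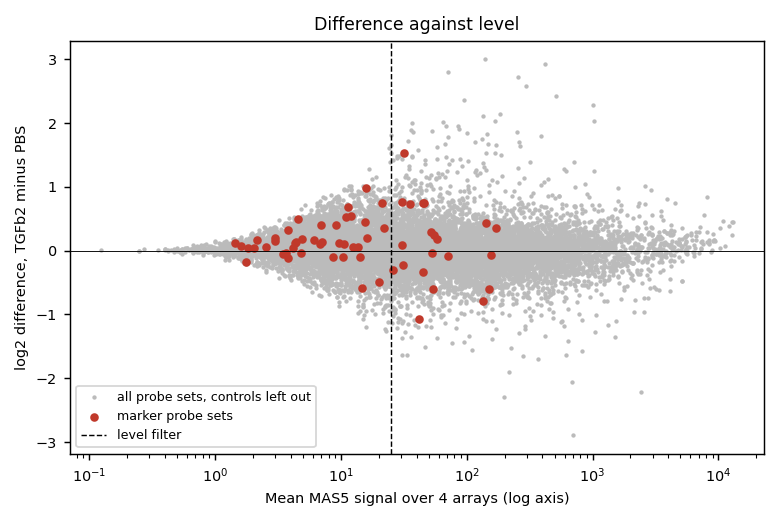
Log2 difference, TGFb2 minus PBS on the log2(signal + 15) scale, against mean MAS5 signal over the 4 arrays (log axis), for the 62 marker probe sets (red) and all 12422 probe sets without controls (grey). Of the 62, 41 lie left of the level filter at 25.1 (dashed), and the differences of all 62 run from -1.07 to 1.53.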

How the data were processed

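The values used were the deposited probe set intensities, which per the submitters' processing notes are MAS5 signals on a linear scale (version not given in the sources used here). All 4 arrays had a 2% trimmed mean of 150.1, and no scaling was added. Detection calls and scan dates were not at hand. The tests left out 66 control probe sets. Of the rest, 10833 carried 1 symbol, 396 several and 1193 none, and 10817 of the 10833 were found by gene ID in the GRCm38.p6 table, with 0 symbols changed. The pseudocount of 15 was 10% of the trimmed mean. Log2 differences on this scale understate changes of dim genes. limma 3.58.1 in R 4.3.3 (lmFit, eBayes with an intensity trend, two-sided, Benjamini-Hochberg over all 7453 tested probe sets, threshold 0.05) compared TGFb2 with PBS over all 4 arrays without further terms. The script was tested on simulated data. The number of arrays limits the precision. No pair of arrays held the same values beyond chance ties. All members were named. From the wider lists the rule took genes past the test or, where a list had none, its 2 largest tested differences. Only those that bore on a result are printed. Members, lists and motifs were chosen with earlier results of these data known, and the blank probe sets after the signals were seen. Alternatives covered the pseudocount, normalization, filter, variance model, replicate block and each array left out.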

Additional observations from a re-analysis of the deposited data

How the results depend on the processing

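No marker probe set passed (0) in 10 of the 12 alternatives. The exceptions were cyclic loess, with 1 (the _s_at probe set of Zap70), and the replicate block, with 2 (that probe set, adjusted p = 0.0136, and the brightest of Pdgfra at -0.78, adjusted p = 0.0287, both limma). The replicate numbers are shared by the labels only: with 2 pairs, deviations of same-numbered arrays correlated at 0.142, which does not settle a pairing, and the replicate block raised the count over all probe sets to 324 from 87 without it. That count was 56 with a 10th of the pseudocount, 6 with no filter, 13 with no intensity trend and 11 to 50 with 1 array left out. The median difference of the markers was 0.30 with a 10th of the pseudocount. With 1 array left out, non-overlapping markers ran from 23 to 40 above (37.1% to 64.5%, beside 33.1% to 44.8% of all probe sets) and from 9 to 20 below (14.5% to 32.3%, beside 28.8% to 37.6%), and 18 markers instead of 30 lay in the narrower Y-linked range. Signs changed only with 1 array left out among tested probe sets, in 6 of 21: Cd4 (-0.76 to 0.31), the brighter Vwf (-0.42 to 0.28), the brighter Ms4a1 (-0.46 to 0.29), Cd79b (-0.14 to 0.31), the _r_at probe set of Zap70 (-0.25 to 0.63) and the brighter Pax5 (-0.048 to 0.62). The cause was not tested. Of the 41 probe sets below the filter, 21 kept their sign in all alternatives. The ratios of summed signals moved by less than the replicate spread when all probe sets were used.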

Other observations

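Markers of 3 cell types outside the list were read in the same way. Of 16 neutrophil genes, 15 were on the array, 6 were tested and 1 rose. This was S100a8, a calgranulin chain, at 550.6 and 679.2 with TGFb2 and 128.7 and 210.9 with PBS (log2 difference 1.80 ± 0.24, limma adjusted p = 0.0244). Of 11 dendritic cell genes, 9 were on the array, 6 were tested and 0 passed, with Cd83, a surface protein of mature dendritic cells, at 248.7 and 178.0 with TGFb2 and 429.1 and 385.5 with PBS (limma, adjusted p = 0.10). Of 8 erythroid genes, 4 were on the array and 1 was tested, the globin gene Hba-a1, at 65.2 and 32.0 with TGFb2 and 48.0 and 17.6 with PBS, with overlap.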
